A study of Mus musculus with 11 samples.

Results

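The neurotrophin system was followed through 6 genes: the ligand genes Bdnf and Ntf3, the Trk receptor genes Ntrk2 and Ntrk3, the p75 receptor gene Ngfr, and the sortilin gene Sort1. They were taken by symbol from a table of 24320 usable genes, and all 6 were found. The 6 genes were chosen by results of the same comparisons that are described here, so their differences are given as a description and without p-values. How many of them passed the threshold of the fit over all genes is printed once, beside the share of all genes that passed, and nothing is read from it. Where groups are said not to overlap, for these or other genes, the share of all genes that did the same was not counted. Such separation is given as a description only. A list of 73 other genes of the pathway was fitted in the same way and is given with its tests. That list was also drawn up with earlier results of these data known. Most genes named from it were picked for the size of their difference. Their p-values carry both limits and are not independent evidence.

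Neurotrophins are small secreted proteins, made as longer precursors, that support the survival, growth and synaptic function of neurons. Brain-derived neurotrophic factor (Bdnf) acts mainly through the receptor tyrosine kinase TrkB (Ntrk2) and neurotrophin-3 (Ntf3) mainly through TrkC (Ntrk3), while p75 (Ngfr) binds both. Uncleaved precursors bind p75 together with sortilin (Sort1), a sorting receptor that also carries precursors inside the cell. In brain, Bdnf is made mainly by neurons, and Ntrk2 is expressed by neurons in a form with a kinase and by astrocytes in a form without one.

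Tumors had been made in mice with the Sleeping Beauty system, in which a transposase cuts genes out of plasmids and inserts them into the genome of the cell. Plasmids for the transposase, firefly luciferase, SV40 large T antigen and either nRas-G12V, a constantly active small GTPase, or PDGFb, a growth factor, were injected into the right lateral ventricle of newborns. Both kinds of tumor thus carry large T antigen, and tumors were taken at a middle stage of growth from the region that glowed with GFP. There were 4 NRAS tumor libraries, 4 PDGFB tumor libraries and 3 libraries of normal brain labelled wild type. The labels give the strain as B6 for every library except normal brain 3, labelled FVB, whereas the series text names FVB throughout, with ages at collection not given in the sources used here. By their titles, normal brain 1 was matched with NRAS tumor 2, and PDGFB tumor 1 with normal brain 3. Nothing states that libraries of a group are from separate animals, and p-values therefore reflect the spread among libraries, which may be technical.

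Expression was measured by RNA sequencing as FPKM, fragments of a gene scaled by transcript length and by the library total, and the read depth behind it is unknown. Steps between low values gave depths relative to the deepest library. These were 0.779 to 0.818 in normal brain, 0.933 to 1 in NRAS tumors and 0.853 to 0.895 in PDGFB tumors. The groups did not overlap in depth, so depth and group cannot be told apart. In a library, 12705 to 13923 genes reached 1 FPKM. Summed FPKM of 10 neuron markers was 2471 to 2903 in normal brain, 262 to 1221 in NRAS tumors and 112 to 670.4 in PDGFB tumors, and NRAS tumor 2 stood nearest to normal brain at 1221. Title numbers run from 1834 to 1838 for the normal brains and NRAS tumors 1 and 2, and from 2038 to 2046 for the other tumors, and the labels do not say what these numbers mean. PDGFB tumors and normal brain share no number series, so number series and tumor cannot be told apart there. In bulk tissue, fewer cells of a type and less RNA per cell cannot be told apart.

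The genes lie on separate chromosomes of the GRCm38 (mm10) genome in the GENCODE M21 annotation. Bdnf spans chr2:109674700-109727007 on the plus strand with 11 coding transcripts, and Ntf3 spans chr6:126101412-126166910 on the minus strand with 3. Ntrk2 (chr13:58806569-59133970, plus strand) has 7 coding transcripts of 466 to 821 codons, and Ntrk3 (chr7:78175959-78738012, minus strand) has 6 of 82 to 864 codons. The 1 value per gene in the table does not separate full-length Trk receptors from forms that lack the kinase. Ngfr spans chr11:95568818-95587735 on the minus strand with 1 coding transcript, and Sort1 spans chr3:108284082-108361511 on the plus strand with 2. Antisense genes overlap Bdnf, Ntrk2, Ntrk3 and Sort1, with strand use in counting not given in the sources used here.

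Sequence before the RefSeq start sites was available for 4 of the 6 genes (build GRCm38.p6) and is shown because Ntf3, Ngfr and Ntrk2 were all lower in PDGFB tumors while Bdnf varied between libraries. Ntrk3 and Sort1 are named only. Both strands of 250 bases before each start were searched for the cAMP response element TGACGTCA, its half-site TGACG (which lies within it), the AP-1 motif TGAGTCA or TGACTCA, the EGR1 motif GCGTGGGCG or GCGGGGGCG, and the GC box GGGCGG. Capitals mark the motifs found, on either strand, and each stretch is written 5′ to 3′ on the strand of its gene.
Bdnf, chr2:109692186-109692435, plus strand: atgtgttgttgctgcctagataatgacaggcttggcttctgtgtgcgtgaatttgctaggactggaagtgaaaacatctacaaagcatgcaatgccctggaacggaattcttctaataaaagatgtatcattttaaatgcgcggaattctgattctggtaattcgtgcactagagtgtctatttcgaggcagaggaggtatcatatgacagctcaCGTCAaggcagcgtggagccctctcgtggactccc
Ntf3, chr6:126164961-126165210, minus strand: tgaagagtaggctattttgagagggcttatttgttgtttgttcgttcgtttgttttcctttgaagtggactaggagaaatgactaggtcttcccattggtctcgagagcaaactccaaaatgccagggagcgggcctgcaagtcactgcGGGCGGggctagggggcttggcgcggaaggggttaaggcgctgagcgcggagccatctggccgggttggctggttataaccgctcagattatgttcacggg
Ntrk2, chr13:58806319-58806568, plus strand: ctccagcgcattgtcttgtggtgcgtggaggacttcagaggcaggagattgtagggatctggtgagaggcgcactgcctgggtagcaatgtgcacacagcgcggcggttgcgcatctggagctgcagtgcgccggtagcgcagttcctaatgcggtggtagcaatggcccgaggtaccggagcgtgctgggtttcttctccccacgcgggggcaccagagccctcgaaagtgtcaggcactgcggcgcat
Ngfr, chr11:95587736-95587948, minus strand: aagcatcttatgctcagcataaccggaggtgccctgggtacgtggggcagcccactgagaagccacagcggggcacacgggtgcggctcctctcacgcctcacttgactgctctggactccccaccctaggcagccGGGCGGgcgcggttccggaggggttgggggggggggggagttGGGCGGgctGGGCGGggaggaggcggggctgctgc

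Among the 7 start sites of Bdnf, the window shown was the 1 that held a half-site of the cAMP response element. Of 32851 windows of this length in the RefSeq table, 17.8% held such a half-site. That share is for a single window, whereas 7 were searched for Bdnf, so the 2 cannot be compared directly. The Ntf3 window shown held 1 GC box, as did the window of the other Ntf3 start in the table, and 2 of the Bdnf windows not shown held 2 and 1. The Ngfr window held 4, of which 3 lie in the 213 bases shown, the rest of that window being transcribed in GENCODE. A GC box was present in 32.7% of all windows. In the Ntrk2 window none of these motifs was found, and it held 19 CpG dinucleotides against a median of 6, with a GC content of 62.8% against a median of 52.4%. These matches are descriptions of the letters in the windows.

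**Figure D1:**
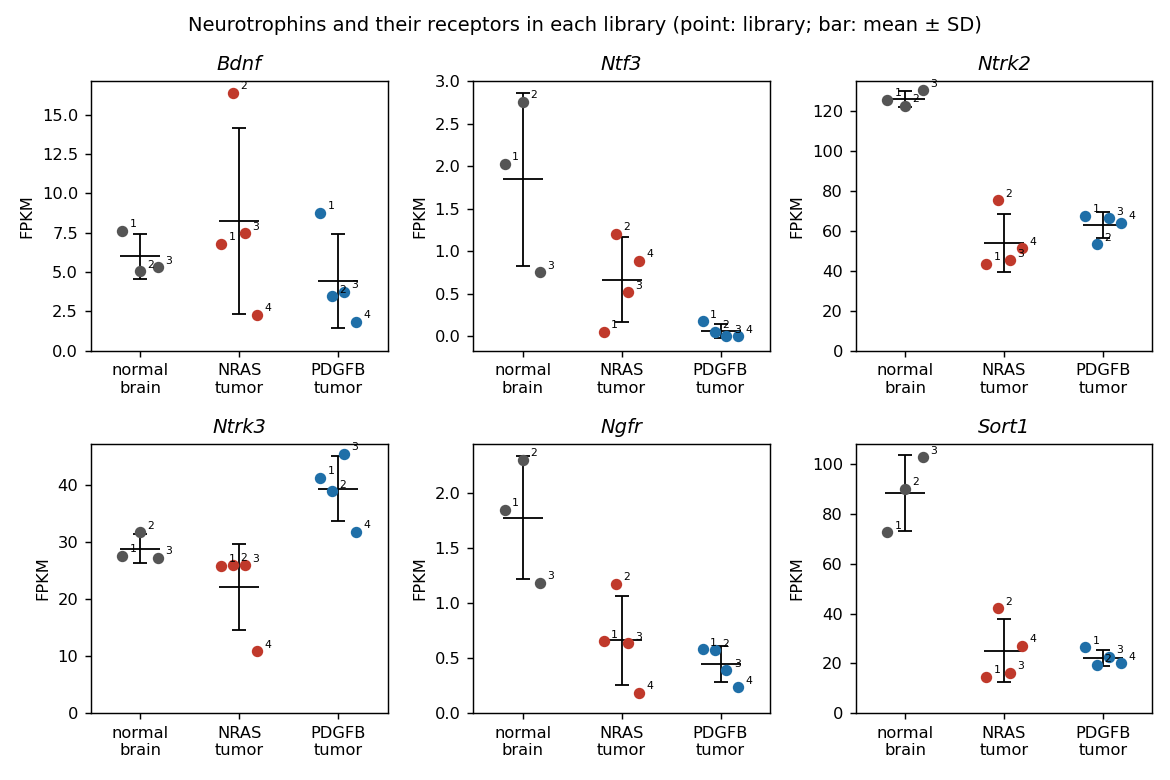
FPKM (vertical axis, linear) of the 6 genes in each of 3 normal brain, 4 NRAS tumor and 4 PDGFB tumor libraries, with the mean and SD of each group; small numbers give the replicate. Ntrk2 and Sort1 are lower in all 8 tumors than in any normal brain, Ntrk3 lies below normal brain in NRAS tumors and above it in PDGFB tumors, and Bdnf overlaps between groups. How many of all genes separate in these ways was not counted.

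Bdnf, the ligand of TrkB, showed no separation between groups and spread widely within both kinds of tumor. It stood at 7.63, 5.06 and 5.30 FPKM in normal brains 1, 2 and 3. In NRAS tumors 1 to 4 it stood at 6.79, 16.4, 7.46 and 2.30 FPKM, and in PDGFB tumors 1 to 4 at 8.75, 3.44, 3.74 and 1.85 FPKM. NRAS tumor 2 was the highest library and PDGFB tumor 4 the lowest, and the ranges of the groups overlapped in all 3 comparisons. Within a group the highest library exceeded the lowest by 1.51 times in normal brain, 7.14 times in NRAS tumors and 4.74 times in PDGFB tumors.

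On the log2(FPKM + 1) scale the mean Bdnf difference was 0.18 ± 0.51 (SE) for NRAS tumors minus normal brain and -0.49 ± 0.51 for PDGFB tumors minus normal brain. Between the tumor models it was 0.67 ± 0.47 for NRAS minus PDGFB. The first of these moved with single libraries: without NRAS tumor 2 it was -0.20, and without NRAS tumor 4 it was 0.60. Markers of cortical and hippocampal neurons, among the cells that make Bdnf, summed to 71.2 to 105.6 FPKM in normal brain, 15.3, 81.4, 20.1 and 43.5 FPKM over NRAS tumors 1 to 4 and 9.72 to 32.4 FPKM in PDGFB tumors. Among the NRAS tumors, replicate 2 had the most Bdnf and the highest sum of these 6 markers, whereas replicate 4 had the least Bdnf and the next highest sum. The part of the markers in the Bdnf level was not tested.

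Ntf3, the ligand of TrkC, was low throughout and nearly unmeasured in PDGFB tumors. It stood at 2.03, 2.76 and 0.754 FPKM in the normal brains and at 0.0498, 1.21, 0.517 and 0.890 FPKM over NRAS tumors 1 to 4. In PDGFB tumors it stood at 0.176 and 0.0563 FPKM in replicates 1 and 2 and was listed at 0 in replicates 3 and 4. Every PDGFB tumor lay below every normal brain, whereas the NRAS tumors overlapped both other groups. Mean log2 differences were -0.76 ± 0.29 (SE) for NRAS tumors and -1.36 ± 0.29 for PDGFB tumors relative to normal brain, and 0.60 ± 0.27 between NRAS and PDGFB tumors.

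The reads behind such low levels are not known, and a value of 0 can be a level below detection or a failed estimate. Ntf3 reached 1 FPKM in 3 libraries, 2 normal brains and NRAS tumor 2, so it entered the fit mainly through the group where it was high. With 0.1 in place of 1 added before the logarithm, its differences were -1.56, -3.59 and 2.03. The normal brains themselves differed 3.66 times in Ntf3, with the lowest value in normal brain 3. That library also had the highest sum of 6 striatal neuron markers, 463.1 FPKM against 159.7 and 238.3 in normal brains 1 and 2, and the part of the region sampled was not tested.

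Ntrk2, which encodes TrkB, was the highest of the 6 genes in all 11 libraries and was lower in every tumor than in every normal brain. Normal brains stood at 126, 123 and 130.4 FPKM. NRAS tumors 1 to 4 stood at 43.5, 75.3, 45.3 and 51.2 FPKM, and PDGFB tumors 1 to 4 at 67.5, 53.3, 66.3 and 64.0 FPKM. Mean levels were thus 42.7% of normal brain in NRAS tumors and 49.7% in PDGFB tumors, with log2 differences of -1.25 ± 0.18 (SE) and -1.002 ± 0.18. The tumor models overlapped each other, with a difference of -0.25 ± 0.16, and the highest NRAS tumor was replicate 2.

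Sort1, which encodes sortilin, was lower still relative to normal brain. It stood at 72.5, 89.8 and 102.6 FPKM in the normal brains, at 14.7, 42.1, 16.3 and 27.1 FPKM over NRAS tumors 1 to 4, and at 26.4, 19.2, 22.6 and 20.1 FPKM in PDGFB tumors 1 to 4. No tumor reached the lowest normal brain, and NRAS tumor 2 was again the tumor nearest to it. Mean levels were 28.4% of normal brain in NRAS tumors and 25.0% in PDGFB tumors, with log2 differences of -1.88 ± 0.30 (SE) and -1.95 ± 0.30, and the models differed by 0.06 ± 0.28. After group means were removed, Ntrk2 and Sort1 varied together over the 11 libraries with a Pearson r of 0.898. That value is a description of libraries that also vary in depth and tissue makeup.

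Neuron markers fell in both kinds of tumor, where Ntrk2 and Sort1 were also lower, and astrocyte markers fell in part. Of 10 neuron markers, 9 fell in NRAS tumors and 10 fell in PDGFB tumors against normal brain (limma, adjusted p under 0.05), with median log2 differences of -2.28 and -2.91. Of 8 astrocyte markers, 4 fell in NRAS tumors and 5 in PDGFB tumors, beside 30.3% and 29.2% of all genes. Of the astrocyte markers that did not pass in NRAS tumors, Aldh1l1 stood at 203%, Aqp4 at 118% and Slc1a3 at 100.3% of the normal brain mean. Over the 8, the summed FPKM was 724 to 794 in normal brain, 434 to 600.4 in NRAS tumors and 241 to 404 in PDGFB tumors. Of 8 myelin markers, all 8 fell in both kinds of tumor. None of these markers was at 0 in every library of a group. The median difference of the neuron list was larger in size than the difference of Ntrk2 or Sort1 in both kinds of tumor, and the part of these cell types in the levels of either gene was not tested.

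**Figure D2:**
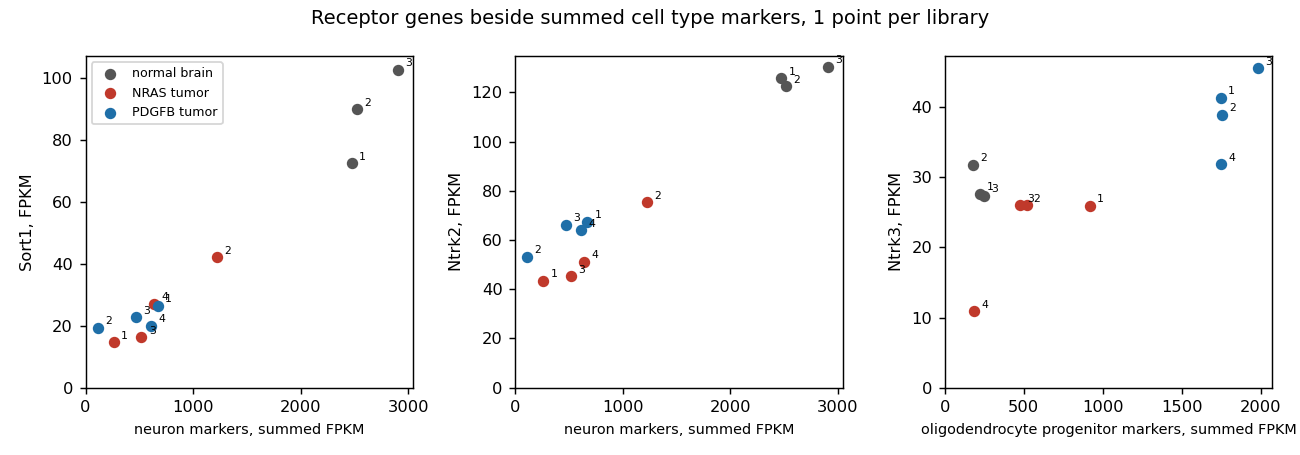
Sort1 and Ntrk2 (FPKM, vertical axes) against the summed FPKM of 10 neuron markers, and Ntrk3 against that of 8 oligodendrocyte progenitor markers, 1 point per library with its replicate number. Normal brains lie apart at 2471 or more for neuron markers with NRAS tumor 2 nearest to them at 1221, and PDGFB tumors lie apart at 1747 or more for progenitor markers.

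Ntrk3, which encodes TrkC, lay below normal brain in NRAS tumors and above it in PDGFB tumors, by small margins in some libraries. How many of all genes had such an order was not counted. It stood at 27.6, 31.77 and 27.3 FPKM in the normal brains. NRAS tumors 1 to 4 stood at 25.9, 26.0, 26.0 and 10.9 FPKM, and PDGFB tumors 1 to 4 at 41.4, 38.9, 45.6 and 31.85 FPKM. All NRAS tumors were below all normal brains and all PDGFB tumors above them, but PDGFB tumor 4 exceeded normal brain 2 by less than 0.1 FPKM, and NRAS tumors 1 to 3 lay close under normal brain 3. Log2 differences were -0.44 ± 0.27 (SE) for NRAS tumors and 0.43 ± 0.27 for PDGFB tumors relative to normal brain, and -0.87 ± 0.25 between NRAS and PDGFB tumors. Without NRAS tumor 4 the first of these was -0.15.

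Oligodendrocyte progenitor markers were highest in the group with most Ntrk3. Their summed FPKM was 178 to 251 in normal brain, 917, 518, 474 and 187 in NRAS tumors 1 to 4, and 1747 to 1984 in PDGFB tumors. Of the 8 markers, 4 rose in NRAS tumors and 7 rose in PDGFB tumors against normal brain, and 7 were lower in NRAS than in PDGFB tumors. Among all genes tested, the shares were 32.0% and 29.3% higher and 12.2% lower in the same order. NRAS tumor 4, lowest in Ntrk3, also had the lowest sum among the tumors, whereas normal brains had more Ntrk3 than NRAS tumors 1 to 3 at lower sums. The part of these cells in the Ntrk3 level was not tested.

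The order of Sort1 and Ntrk3 levels differed between libraries. FPKM is scaled by transcript length, so levels of different genes were set side by side. The transcript forms and strand use behind each value are not known, so which of 2 genes is higher is uncertain. The Sort1 level was 2.62 to 3.75 times the Ntrk3 level in normal brain and 0.494 to 0.639 times in PDGFB tumors. In NRAS tumors 1 to 4 this ratio was 0.567, 1.62, 0.628 and 2.49, so 2 NRAS tumors kept the order of normal brain and 2 had the order of PDGFB tumors. The Ntrk2 level was 3.86 to 4.77 times the Ntrk3 level in normal brain and 1.37 to 2.01 times in PDGFB tumors. In NRAS tumors the same ratio was 1.68, 2.89, 1.74 and 4.70, the last within the range of normal brain.

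Ngfr, which encodes p75, was low in normal brain and lower in tumors. It stood at 1.84, 2.30 and 1.18 FPKM in the normal brains, at 0.652, 1.17, 0.635 and 0.189 FPKM over NRAS tumors 1 to 4, and at 0.580, 0.570, 0.389 and 0.238 FPKM in PDGFB tumors 1 to 4. No tumor reached a normal brain, but NRAS tumor 2 at 1.17 FPKM lay just under normal brain 3 at 1.18 FPKM. Mean levels were 37.3% of normal brain in NRAS tumors and 25.0% in PDGFB tumors. Log2 differences were -0.75 ± 0.22 (SE) and -0.93 ± 0.22 against normal brain and 0.18 ± 0.20 between NRAS and PDGFB tumors. At such low levels, adding 1 before the logarithm makes these differences smaller. Ngfr reached 1 FPKM in 4 libraries, the normal brains and NRAS tumor 2. Since p75 also marks Schwann and neural crest cells, 7 markers of these cells were summed: 9.88 to 16.2 FPKM in normal brain, 11.7 to 21.4 FPKM in NRAS tumors and 24.9 to 55.7 FPKM in PDGFB tumors. Of the 4 markers tested, 2 rose in NRAS and 3 in PDGFB tumors, beside 32.0% and 29.3% of all genes tested. Of the 7, Foxd3 was at 0 in all normal brains and Pmp2 in all NRAS tumors. The part of these cells in the Ngfr level was not tested.

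**Figure D3:**
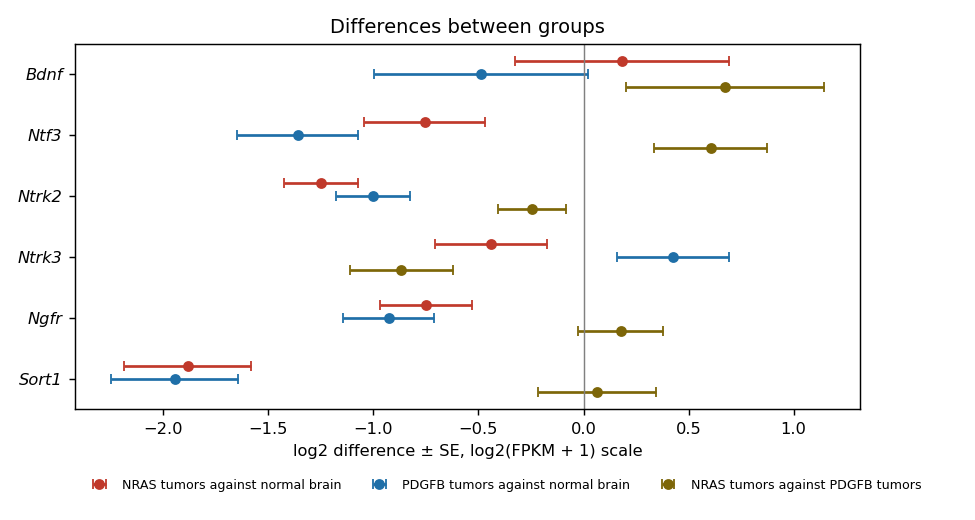
Log2 differences with SE on the log2(FPKM + 1) scale (horizontal axis) for the 6 genes (rows) in the 3 comparisons, from 1 fit of 11 libraries. Sort1 and Ntrk2 lie farthest from 0 among the receptors in both tumor models, at -1.88 and -1.95 for Sort1, and the Ntrk3 differences have opposite signs in the tumor models.

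Counted together, 4 of the 6 genes (Ntf3, Ngfr, Ntrk2 and Sort1) were past the threshold of 0.05 and below normal brain in NRAS tumors, and none was higher. Among all 14491 genes tested, 62.3% were past it in that comparison, 32.0% higher and 30.3% lower. The same 4 genes were lower in PDGFB tumors, where 58.5% of all genes were past it, 29.3% higher and 29.2% lower. Between the models Ntrk3 alone passed, lower in NRAS tumors, where 26.6% of all genes did, 14.3% higher and 12.2% lower. The median of the 6 differences was -0.75, -0.97 and 0.12 in the 3 comparisons, against -0.036 to 0.040 for all genes. As the 6 were chosen on these contrasts, and both comparisons with normal brain share the same 3 normal brains, nothing is read from these counts. Over all alternatives the lower genes numbered 2 to 4 in NRAS tumors (2 without normal brain 2 and within the libraries numbered 1834 to 1838), 3 to 4 in PDGFB tumors and 0 to 2 between the models (0 without PDGFB tumor 1 or 3 and with only the groups compared in the fit). Ntrk3 was also past the threshold and higher in PDGFB tumors than in normal brain with the replicate block and with only the groups compared, and Ntf3 between the models without NRAS tumor 1. In NRAS tumors Ntf3 was not past it with 0.1 added, with only the groups compared, within the 1834 to 1838 series or without NRAS tumor 1 or 3. Without normal brain 1 or 2 or NRAS tumor 2, Ntf3 failed the filter and was not in the fit.

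The genes most like each of the 6 across the 11 libraries were found by Pearson's r of log2 values among all genes tested. The r values are descriptions of libraries that fall into 3 groups, which differ in depth and makeup. Ntrk2 was matched most closely by Itfg1 (r = 0.996), Mapk8ip2 (0.995), a scaffold of kinase signaling in neurons, and Dpp6 (0.995), a partner of potassium channels. With group means removed these were 0.978, 0.968 and 0.965. For Sort1 the closest were Serinc1 (0.992), Mast3 (0.991) and 6330403A02Rik (0.990), and 0.965, 0.977 and 0.944 within groups. Patterns closest to Ntrk3 were those of Trim35 (0.975), the potassium channel gene Kcnd3 (0.954) and Ccar2 (0.953), and 0.954, 0.908 and 0.950 within groups.

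For Ntf3 they were Fibcd1 (0.972), the serotonin receptor gene Htr3a (0.972) and Acadsb (0.971), and for Ngfr the axon guidance receptor gene Robo1 (0.937), Tnfaip8l3 (0.932) and C030018K13Rik (0.932). Their values within groups were 0.908, 0.915 and 0.951 for Ntf3 and 0.760, 0.752 and 0.774 for Ngfr. Across all libraries Bdnf had the loosest matches: E030003E18Rik (0.859), Bmper (0.859), a modulator of BMP signals, and the adrenergic receptor gene Adrb1 (0.828). Within groups these were 0.832, 0.845 and 0.800, and the values of Ngfr were lower.

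The other pathway genes changed in both directions. Of the 73 listed, 70 were tested: 19 rose and 22 fell in NRAS tumors, 23 rose and 22 fell in PDGFB tumors, and between the models 7 were higher and 8 lower in NRAS tumors. These are 58.6%, 64.3% and 21.4% of those tested, beside the shares of all genes given above. Median log2 differences were -0.13, 0.10 and -0.05, against 0.01, 0.04 and -0.04 for all genes. Under quantile normalization the split between the models was 6 higher and 12 lower, and over all genes it turned from 2078 higher and 1774 lower to 1807 higher and 2289 lower. In NRAS tumors against normal brain the total moved from 41 to 26 when the comparison was kept to the libraries numbered 1834 to 1838. Neuron markers fell in both kinds of tumor, as given above, beside the neuronal genes Rtn4r, Lingo1, Pcsk1, Pcsk2, Serpini1, Ndn, Mef2c and Nrn1 described next, and their part in those differences was not tested. Microglia and macrophage markers summed to 88.6 to 112 FPKM in normal brain, 155 to 342 in NRAS tumors and 29.6 to 102 in PDGFB tumors. Of the 6, 4 were higher in NRAS tumors and 1 was lower in PDGFB tumors, beside 32.0% and 29.2% of all genes. None of the 6 was at 0 in a whole group, and their part in the pathway differences was not tested. Ntf5, which encodes neurotrophin-4, another TrkB ligand, was at most 0.342 FPKM in any library and was not tested.

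**Figure D4:**
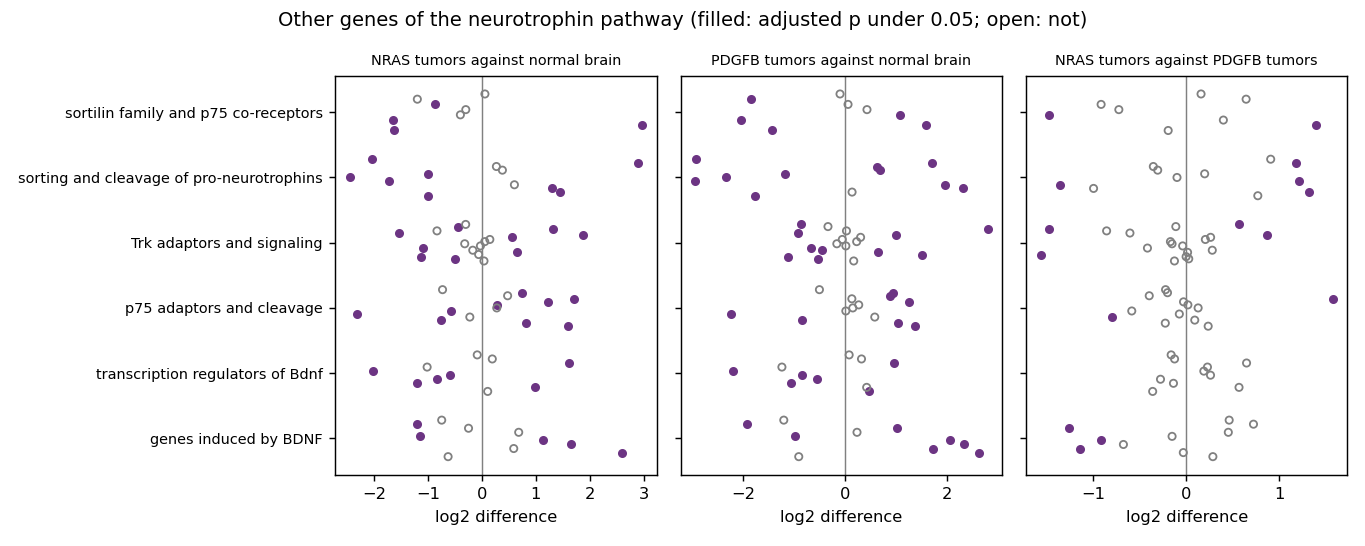
Log2 differences (horizontal axes, log2(FPKM + 1) scale) of the tested pathway genes outside the 6, by list (rows) and comparison (panels); filled points have an adjusted p under 0.05 and vertical scatter has no meaning. Members of nearly every list lie on both sides of 0, and fewer points are filled between the tumor models (15) than against normal brain (41 and 45).

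Among 8 genes of the sortilin family and of p75 co-receptors, 1 rose and 3 fell in NRAS tumors, 2 rose and 3 fell in PDGFB tumors, and 1 was higher and 1 lower between the models. Medians were -0.63, -0.03 and -0.01. The riser in both was Nradd, a relative of p75 with a death domain, at 0.445 to 0.920 FPKM in normal brain, 6.95 to 22.6 in NRAS tumors and 3.72 to 4.92 in PDGFB tumors. No groups overlapped for it, and its log2 differences were 2.97 ± 0.30, 1.57 ± 0.30 and 1.40 ± 0.28 (adjusted p = 3.07e-05, 0.0011 and 0.0047). Nradd reached 1 FPKM in 8 libraries, all of them tumors, so it entered the fit only through the groups where it was high. Its p-values against normal brain carry that limit.

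The Nogo receptor gene Rtn4r and its partner Lingo1, which join p75 in signals from myelin, fell in both kinds of tumor. Rtn4r fell by 1.65 ± 0.60 on the log2 scale in NRAS tumors (adjusted p = 0.0329) and by 2.05 ± 0.60 in PDGFB tumors (0.0125), and Lingo1 fell by 1.62 ± 0.36 in NRAS tumors (0.00275). For Rtn4r the call in NRAS tumors was lost in 6 of 15 alternatives, among them leaving out any normal brain or NRAS tumor 1 or 3 (adjusted p 0.0627 to 0.0959). Sorl1, a sortilin relative, fell by 1.84 ± 0.48 in PDGFB tumors (0.0071). Sorcs1, of the same family, was lower in NRAS than in PDGFB tumors (log2 difference -1.47 ± 0.35, adjusted p = 0.0109), with 2.78 to 14.3 against 18.1 to 27.6 FPKM.

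Genes for the sorting and cleavage of precursors moved in both directions. Of 11 tested out of 13, 3 rose and 5 fell in NRAS tumors (median 0.27), 5 rose and 5 fell in PDGFB tumors (0.13), and 3 were higher and 1 lower in NRAS than in PDGFB tumors (0.20). Plat, tissue plasminogen activator, which leads to cleavage of precursors outside the cell, stood at 19.3 to 24.2 FPKM in normal brain, 90.2 to 264 in NRAS tumors and 59.3 to 96.0 in PDGFB tumors, with a difference of 2.88 ± 0.30 in NRAS tumors (adjusted p = 3.90e-05). Serpini1, an inhibitor of Plat made by neurons, fell by 2.03 ± 0.60 on the log2 scale in NRAS tumors (0.0122) and by 2.94 ± 0.60 in PDGFB tumors (0.00163), the former lost within the libraries numbered 1834 to 1838 (0.0589).

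The convertases of secretory granules fell, Pcsk2 by 2.44 ± 0.60 on the log2 scale in NRAS tumors and 2.35 ± 0.60 in PDGFB tumors (adjusted p = 0.00496 and 0.00634) and Pcsk1 by 2.94 ± 0.40 in PDGFB tumors (0.000173). Furin, which cleaves precursors in the Golgi, was higher in NRAS than in PDGFB tumors by 1.33 ± 0.24 (0.00283), at 12.7 to 35.5 against 7.64 to 8.41 FPKM and 6.85 to 7.69 in normal brain. Mmp9, a matrix protease that can cleave the Bdnf precursor, was lower in NRAS than in PDGFB tumors (log2 difference -1.35 ± 0.28, adjusted p = 0.00606), at 0.738 to 2.71 against 3.44 to 7.80 FPKM. Pcsk1 was higher in NRAS than in PDGFB tumors by 1.22 ± 0.37 (0.033), a call lost in 10 of 16 alternatives, including without NRAS tumor 2 or 4 or PDGFB tumor 2, 3 or 4 (0.0695 to 0.0936).

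Adaptors and signaling genes of the Trk receptors were measured for 18 of 18: 4 rose and 5 fell in NRAS tumors, 4 rose and 6 fell in PDGFB tumors, and 2 were higher and 2 lower between the models, with medians of -0.11, -0.03 and -0.07. Within the Shc family of adaptors, Shc1 rose by 1.87 ± 0.30 in NRAS tumors (adjusted p = 0.000496) while Shc2 fell by 1.53 ± 0.23 on the log2 scale (0.000339). Shc4 stood at 1.64 to 2.04 FPKM in normal brain, 2.22 to 11.2 in NRAS tumors and 14.2 to 26.9 in PDGFB tumors. It rose by 1.31 ± 0.41 in NRAS tumors (0.0168) and 2.79 ± 0.41 in PDGFB tumors (0.000272) and differed by -1.47 ± 0.38 between NRAS and PDGFB tumors (0.0162). The first of these was lost without normal brain 2 (0.0541) and the last without PDGFB tumor 3 (0.0524).

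Gab1, a docking protein downstream of many receptor kinases, rose by 1.501 ± 0.25 in PDGFB tumors (adjusted p = 0.000538) and was lower in NRAS than in PDGFB tumors (log2 difference -1.56 ± 0.23, adjusted p = 0.00126), at 6.42 to 16.4 against 27.9 to 40.2 FPKM. Frs3, a Trk docking protein, fell by 1.13 ± 0.21 on the log2 scale in PDGFB tumors (0.00101). Shc1 was higher in NRAS than in PDGFB tumors by 0.87 ± 0.28 (0.0411), a call lost in 9 of 16 alternatives, including without NRAS tumor 1, 3 or 4 or PDGFB tumor 1, 3 or 4 (0.0685 to 0.0939).

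Partners of p75 and its cleavage were measured for 13 of 13: 6 rose and 3 fell in NRAS tumors, 5 rose and 2 fell in PDGFB tumors, and 1 was higher and 1 lower between the models, with medians of 0.28, 0.26 and -0.07. Adam17, the protease that sheds p75 from the cell surface, rose by 1.60 ± 0.22 and 1.37 ± 0.22 (adjusted p = 0.000211 and 0.000466), and Rhoa, a GTPase that p75 can activate, rose by 1.24 ± 0.16 in PDGFB tumors (0.000123). Ndn, or necdin, a protein of neurons that binds p75, fell by 2.31 ± 0.35 and 2.24 ± 0.35 on the log2 scale (0.000319 and 0.000349). Ripk2, a kinase that binds the p75 death domain, rose by 1.70 ± 0.19 in NRAS tumors (7.17e-05) and was higher there than in PDGFB tumors by 1.58 ± 0.18 (0.000381), at 10.6 to 19.0 against 3.299 to 4.86 FPKM. Maged1, another p75 partner, was lower in NRAS than in PDGFB tumors (log2 difference -0.80 ± 0.23, adjusted p = 0.0276), a call lost in 5 of 16 alternatives. These included leaving out NRAS tumor 4 or PDGFB tumor 3 or 4 (0.0582 to 0.0822).

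Transcription regulators known to act on Bdnf were measured for 10 of 10: 2 rose and 4 fell in NRAS tumors, 2 rose and 4 fell in PDGFB tumors, and by limma 0 passed between the models, where 0 had an unadjusted p under 0.05 either, with medians of -0.34, -0.24 and 0.03. Mef2c, an activity-dependent factor of neurons, fell by 2.02 ± 0.61 and 2.21 ± 0.61 on the log2 scale (adjusted p = 0.0135 and 0.00885). The former was lost without normal brain 3 (0.0585) and within the libraries numbered 1834 to 1838 (0.0667). Crtc1, a coactivator of CREB, fell by 1.21 ± 0.23 and 1.07 ± 0.23 (0.0012 and 0.00227). Rest, which represses neuronal genes outside neurons, rose by 1.61 ± 0.38 in NRAS tumors (0.00375). In PDGFB tumors the Rest difference of 0.96 ± 0.38 (0.048) lost its call in 9 of 14 alternatives, including without any normal brain or PDGFB tumor 1, 2 or 3 (0.0726 to 0.147). Crem had the smallest p between the models, at 0.57 ± 0.26 (0.133), and passed without NRAS tumor 1 (0.0409) and within the libraries numbered 2038 to 2046 (0.0227).

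Genes that Bdnf is known to induce in neurons were measured for 10 of 10: 3 rose and 2 fell in NRAS tumors, 5 rose and 2 fell in PDGFB tumors, and 3 were lower in NRAS than in PDGFB tumors, with medians of 0.17, 0.62 and -0.09. Many other signals also induce these genes. Dusp6, a phosphatase induced by ERK signaling, rose by 2.59 ± 0.21 and 2.62 ± 0.21 (adjusted p = 6.81e-06 and 6.32e-06). It stood at 18.5 to 22.6 FPKM in normal brain, 116 to 151 in NRAS tumors and 101 to 194 in PDGFB tumors. The immediate early genes Egr2 and Fos rose by 2.32 ± 0.25 and 2.04 ± 0.24 in PDGFB tumors (4.01e-05 and 7.13e-05), and Egr2 by 1.65 ± 0.25 in NRAS tumors (0.00032). Egr2 is also among the 7 Schwann cell markers. Nrn1, a surface protein of neurons, fell by 1.21 ± 0.39 on the log2 scale in NRAS tumors (0.019). That call was lost without normal brain 3 (0.071), with the replicate block (0.062) and within the libraries numbered 1834 to 1838 (0.078).

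The immediate early genes Nr4a1, Egr1 and Fos were lower in NRAS than in PDGFB tumors, with log2 differences of -1.26 ± 0.34, -1.13 ± 0.25 and -0.91 ± 0.22 (adjusted p = 0.0193, 0.00805 and 0.0122). Nr4a1 lost its call without NRAS tumor 3 or 4 (0.0564 and 0.0534). Egr1 stood at 50.2 to 103 FPKM in NRAS tumors and 114 to 210.3 in PDGFB tumors, and Fos at 20.2 to 31.3 and 40.8 to 52.0. Neither overlapped between the models, and the part of Bdnf in these levels was not tested.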

How the data were processed

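RNA from 11 samples was measured by sequencing, and the authors deposited 1 table of FPKM per gene and library. TopHat2 2.0.13, Cufflinks 2.2.1 and mm10 are named, per the submitters' processing notes; settings, strand use and annotation were not given in the sources used here. Of 24347 rows, 27 with names turned into dates were left out. The table holds no read counts. FPKM divides by transcript length and library total, so abundant transcripts can lower all others. Libraries were grouped by title.

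Values were transformed to log2(FPKM + 1), and 14491 genes that reached 1 FPKM in 3 or more libraries were kept. A single linear model of all 11 libraries, with group means as coefficients, was fitted in limma (version 3.58.1, under R 4.3.3) and moderated by eBayes with a trend. This scale understates changes of low genes. Tests were two-sided, adjusted by Benjamini-Hochberg over all genes tested, with a threshold of 0.05, and the code was tested on simulated data. Alternatives were log2(FPKM + 0.1), no filter, median-of-ratios scaling, quantile normalization, only the groups compared, blocks, 1 number series and leaving out each library.

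The 6 genes and all lists were chosen with earlier results of these data known. Some genes of the pathway are not reported here and were left out of the lists and their counts. Named beside the 6 genes are Ntf5; of every other list, per comparison, up to 3 called genes of largest difference, or the 1 of smallest p where none passed; and the 3 tested genes of highest Pearson r with each of the 6. Foxd3 and Pmp2 are named for being at 0, and Aldh1l1, Aqp4, Slc1a3, Slc1a2 and Gja1 were chosen after their values were seen.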

Additional observations from a re-analysis of the deposited data

Results flagged for a closer look

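Ntrk3 in NRAS tumor 4, at 10.9 FPKM, lay far from the other NRAS tumors at 25.9 to 26.0 FPKM, and without it the NRAS difference from normal brain was -0.15 in place of -0.44. Among the pathway genes, 4 other values also stood apart from the rest of their group, by a smaller share of its range. Pcsk2 was 6.12 FPKM in PDGFB tumor 2 against 23.9 to 27.6 in the others. In NRAS tumor 2, Rest was 3.03 FPKM against 6.28 to 6.93 in the others and Nr4a1 was 35.8 FPKM against 9.38 to 12.5. Dusp6 was 151 FPKM in NRAS tumor 1 against 116 to 121. These are 5 of 74 groups of 4 libraries looked at, and chance flags about 1 in 20.

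Ntrk3 lay on opposite sides of normal brain in the tumor models, with a log2 difference of -0.87 between NRAS and PDGFB tumors, given as a description because the gene was chosen on these comparisons. It was flagged by the order of its libraries alone. Other pathway genes were flagged only if called in opposite directions against normal brain and also called between the models.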

How the results depend on the processing

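Within the libraries numbered 1834 to 1838, NRAS tumors against normal brain gave 5817 genes called against 9023, of which 5619 were shared, and 26 pathway genes against 41, of which 24 were shared; that fit holds 5 libraries. Other totals of all genes and of pathway genes stayed within 1.5 times of the reported ones, but genes lower in NRAS than in PDGFB tumors fell from 1774 to 1030 without PDGFB tumor 3, 1124 without NRAS tumor 4 and 1136 with only the groups compared. Leaving out each library gave 7411 to 9375, 6922 to 8522 and 2580 to 4186 genes called, and 30 to 45, 37 to 45 and 11 to 18 pathway genes, for NRAS tumors against normal brain, PDGFB tumors against normal brain and NRAS against PDGFB tumors. Same-numbered libraries did not vary together (r from -0.50 to 0.16), and with the replicate number as a block 8206, 7835 and 3249 genes and 34, 42 and 16 pathway genes were called. For the 6 genes, log2(FPKM + 0.1) moved Ngfr to -1.43 and -1.79 against normal brain, beside the Ntf3 values given above. Between the models Ngfr was -0.11 under quantile normalization. The sign of Sort1 between the models changed in 3 of 16 alternatives. No difference of a called gene reversed. Of the genes named in the pathway lists, 13 of 18, 17 of 18 and 8 of 13 calls were kept in all alternatives. For PDGFB tumors against normal brain no fit within 1 number series could be made. Low signal limits Ntf3 and Ngfr, which were under 3 FPKM in every library.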
